A study of Drosophila melanogaster with 36 samples.

Results

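The minor piRNA clusters of Drosophila melanogaster described here are 290 bins of 1 kb, of 139714 bins in the whole table and of 5049 bins that it assigns to published piRNA clusters. They were chosen by 4 annotation columns: a bin lies in a published cluster, is not part of a major cluster, carries no heterochromatin flag and is not on chromosome 4. The rule uses no measured value of these libraries, though it was set with earlier results of these data known. Of the other published bins, 582 were major, 4026 were flagged heterochromatic and 151 lay on chromosome 4.

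piRNAs are small RNAs that guide Piwi-family proteins to transposon transcripts, and they are cut from long precursor RNAs made at genomic clusters. In the fly germline, clusters read on both strands are bound by Rhino, a relative of the heterochromatin protein HP1 that recognises the histone mark H3K9me3. Deadlock and Cutoff act with Rhino to allow transcription of these loci without ordinary promoters. Clusters read on a single strand, of which flamenco in the somatic cells around the germline is the best known, do not need Rhino.

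All material was ovary from adult females aged 4 to 6 days and kept at 25 °C, in which RNA interference in the germline targeted rhino, deadlock, cutoff or piwi, or served as control. Small RNA of 18 to 29 nt was sequenced in control, rhino, deadlock and cutoff knockdown, with 1 library each. A further small RNA library held RNA bound by Piwi in ovaries whose germline had lost piwi, so that Piwi was left in the somatic cells of the ovary. RNA depleted of ribosomal RNA came from 2 control libraries and 1 library of each of the rhino, deadlock and cutoff knockdowns. Nascent RNA (GRO-seq) and RNA polymerase II (Pol II) ChIP were made in control and rhino knockdown, with 1 library each. Rhino ChIP covered control and all 4 knockdowns, H3K9me3 ChIP covered control, rhino and piwi knockdown, and Deadlock and Cutoff ChIP each covered control and the knockdown of the same gene. The control and piwi Rhino, the H3K9me3 and the input columns are averages of 2 libraries made by the authors before deposit. The knockdowns act in germ cells only, and whole ovaries were taken, so less RNA per cell and fewer cells of a type cannot be told apart. The driver of the knockdown is not given in the labels, and the level of the targeted genes was not analysed here, since the bins carry no gene names.

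Signal is given throughout as the table has it. It was read as reads scaled to the library total (RPM), divided by the mappability of the bin, plus a small offset. The labels do not define the unit, and the scaling to the library total was not tested. On that reading, library totals ran from 4190000 to 6340000 reads for the 4 whole small RNA libraries and were 44000000 for the Piwi-bound library. They ran from 36290000 to 169659997 for RNA-seq. The median input of a bin was 8.71, and bins with at least 25% of it were kept, in all 123742 bins and 220 of the 290 members. Of the 70 members not kept, 51 had a mappability of 0, and 15 had a control small RNA signal of at least 10.

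Joined over gaps of up to 3 kb, the members formed 17 loci, named here by chromosome arm and order along it, with positions on the dm3 assembly. The largest was X-6, chromosome X from 21759001 to 21845000, with 86 bins of which 57 were kept. X-8, chromosome X from 22342001 to 22384000, kept 40 of 42 bins, and 2L-3, chromosome 2L from 21544001 to 21576000, kept 21 of 32. X-1, chromosome X from 2001 to 28000, kept 21 of 26, and 3R-1, chromosome 3R from 6001 to 23000, kept all of its 17. The other 12 loci kept between 1 and 12 bins each. Chromosome X held 175 of the 290 members, 2L held 52, 3R held 27, 3L held 21 and 2R held 15.

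The label euchromatin held only in part. The heterochromatin flag marks 0 bins on X and on 3R, so no member there could be removed by it. On X, 138 members lay in the last 1 Mb of the table, where X-5, X-6, X-7 and X-8 lie towards the centromere. 3R-1 began 6 kb from the first base of 3R, also the centromeric end. The loci 2L-1, X-1, 2R-2 and 3R-2 lay at the ends of their chromosomes away from the centromere: 2L-1 and X-1 began 2 kb from the first base, and 2R-2 and 3R-2 ended on the last bin of their arms. An annotated exon overlapped 48 members, all of them kept, and the other 242 had none. No gene is named for these bins because no annotation of dm3 was used here.

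At most of these loci small RNA was abundant in control and lower in all 3 knockdowns, while at 3 loci on X it was not lower in all of them. Of the 220 kept bins, 182 had a control small RNA signal of at least 10, against 10.4% of all kept bins. Among those 182, the signal was at least 4-fold lower in 161 bins in rhino knockdown, against 64.2% of all kept bins of that level. In deadlock knockdown it was lower in 155 bins, against 65.3%, and in cutoff knockdown in 163 bins, against 65.0%. In 153 bins it was lower in all 3 knockdowns, against 60.8%. The 3 knockdowns are set against the same control library, which also chose the 182 bins. There is 1 library per condition, so no test between conditions was made.

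The median change of these 182 bins was −4.56 in rhino knockdown (95% interval −4.85 to −4.33), as log2 of signal plus 1. It was −4.59 (−4.91 to −4.04) in deadlock knockdown and −4.63 (−5.0 to −4.33) in cutoff knockdown. Over all 12880 bins of that level the medians were −3.44, −3.59 and −3.51. On this scale the members lay between the 2 kinds of major cluster. In the major clusters of 2L, 2R and 3L, the medians of 245 bins were −7.75, −8.24 and −8.25, and in the major clusters of X, which include flamenco, those of 103 bins were 0.11, 0.02 and 0.00. With log2 of signal plus 1, a bin with less control signal has less room to fall. The median control signal was 98.0 over all 220 kept members and 1758 over all 252 kept bins of the major clusters of 2L, 2R and 3L. In rhino knockdown the medians of the same bins were 2.38 and 8.78. The bins of the table held 89.7% of the total inferred for the control library and 41.3% to 45.2% of those inferred for the knockdown libraries. With each library scaled to equal sums over the major clusters of X instead of as deposited, the medians of the members were −4.53, −4.60 and −4.66. Intervals here are over bins, which share libraries and neighbours, and are not intervals over animals.

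**Figure D1:**
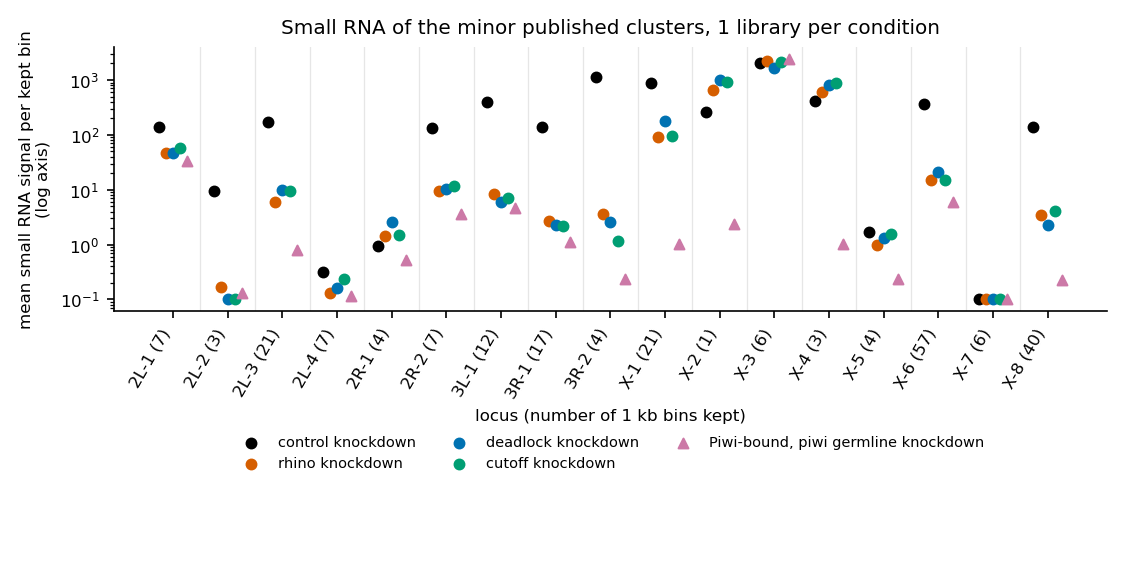
Mean small RNA signal per kept bin on a log axis at each of the 17 loci, with 1 point per library: control, rhino, deadlock and cutoff knockdown, and RNA bound by Piwi in piwi germline knockdown. At 3R-2 the control stood at 1135 and the 3 knockdowns between 1.17 and 3.61, while at X-2 and X-4 all 3 knockdowns lay above the control and at X-3 all 5 libraries lay between 1629 and 2413.

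The largest difference was at 3R-2, chromosome 3R from 27895001 to 27905000, where 4 of 10 bins were kept, none with an exon. Its mean small RNA signal was 1135 in control, 3.61 in rhino, 2.58 in deadlock and 1.17 in cutoff knockdown. That is 332-fold lower in rhino knockdown (95% Clopper-Pearson interval 217 to 538), 425-fold in deadlock (257 to 760) and 996-fold in cutoff (524 to 2178), from summed reads. Such intervals cover counting error only, since reads amplified by PCR without molecular identifiers are not independent molecules. The control sum was 5922 reads, against 21, 15 and 9 reads in the knockdowns.

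The loci 3R-1, X-8, X-6, 3L-1, 2L-3 and 2R-2 also had more than 10-fold less small RNA in each knockdown than in control. At 3R-1 the mean signal was 140.6 in control and 2.64, 2.30 and 2.17 in the rhino, deadlock and cutoff knockdowns. The ratios of control to knockdown were 49.6 (43.1 to 57.3), 56.5 (48.4 to 66.5) and 60.6 (52.9 to 69.9). At X-8 it was 139 against 3.53, 2.31 and 4.07. At X-6 it was 369 against 15.1, 21.2 and 14.8, which is 34.7-fold lower in rhino knockdown (32.6 to 36.9). 3L-1, on chromosome 3L from 19841001 to 19862000 and 4.68 Mb from the last base of its arm, is one of the loci away from both ends. Its mean was 400.3 in control against 8.49, 5.97 and 7.12. 2L-3 had 174 against 5.90, 9.98 and 9.54. 2R-2, chromosome 2R from 21139001 to 21147000, had 133 against 9.45, 10.4 and 11.6, the smallest fold of these 6 loci in each of the 3 knockdowns.

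X-1, at the tip of the X chromosome, held 26.4% of the control small RNA reads of the members, and its difference was smaller. Its mean signal was 889.6 in control, 92.1 in rhino, 179 in deadlock and 94.4 in cutoff knockdown. Control exceeded them 8.46 times (8.23 to 8.69), 4.30 times (4.21 to 4.39) and 8.22 times (8.03 to 8.42), and deadlock knockdown stood apart from the other two beyond counting error. Within the locus, the bin from 6001 to 7000, the member bin with the most small RNA, went from 7116 to 259, 156 and 401. The bin from 8001 to 9000 went from 1308 to 928, 2292 and 787, so the same library was highest there and lowest 2 bins before. The 4 bins from 6001 to 10000 had an input of 46.9 to 83.9, which is 5.38 to 9.64 times the median input. The part of this in the small RNA and Rhino values of these bins was not tested.

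X-3, X-2 and X-4 did not follow this pattern. They were grouped after their values were seen, and X-2 is named only for that reason. X-3, chromosome X from 11089001 to 11096000, has no exon and kept 6 of 7 bins. Its mean small RNA signal was 2071 in control, 2264 in rhino, 1629 in deadlock and 2143 in cutoff knockdown. The knockdown signals were 1.09 (1.08 to 1.11), 0.807 (0.796 to 0.819) and 1.04 (1.02 to 1.05) times control, so only deadlock knockdown was lower. X-2 is the bin of chromosome X from 4022001 to 4023000, which overlaps an exon. It read 258 in control, 654 in rhino, 986 in deadlock and 904 in cutoff knockdown, or 2.53 (2.35 to 2.73), 3.82 (3.55 to 4.11) and 3.50 (3.26 to 3.76) times control. X-4, chromosome X from 12664001 to 12667000, has 3 bins, all with exons. Its mean was 411 in control and 604, 797 and 868 in the knockdowns, or 1.54 (1.47 to 1.61), 2.10 (2.01 to 2.19) and 2.23 (2.14 to 2.32) times control. In all 3 knockdowns both exon loci lay above the control by more than counting error.

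These 3 loci decided the sum over the members. They held 27.0% of the small RNA reads of the kept members in control, and 85.6%, 75.5% and 85.0% in the rhino, deadlock and cutoff knockdowns. Summed over all kept members, small RNA was 2.75-fold lower in rhino, 2.92-fold in deadlock and 2.69-fold in cutoff knockdown. Without X-2, X-3 and X-4 the ratios of control to knockdown were 13.9 (13.6 to 14.2), 8.68 (8.54 to 8.84) and 13.1 (12.8 to 13.3). At least 2-fold more small RNA than in control was found in 2 of the 182 bins in each knockdown, against 4.14%, 5.02% and 5.45% of all kept bins of that level.

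Small RNA was scarce at the other 5 loci, whose mean signals were under 10. 2L-2, chromosome 2L from 20225001 to 20228000, had 117 reads in control and 1, 0 and 0 reads in the knockdowns. X-7, chromosome X from 22110001 to 22116000, had 0 reads in each of the 5 small RNA libraries. If the scale is RPM, that allows up to 0.716 RPM over the locus in control. 2L-4, 2R-1 and X-5 had 6, 7 and 27 control reads in all, too few for the changes between conditions to be read. So 12 of the 17 loci, as joined here from bins of published clusters, reached a mean small RNA signal of 10 in these control ovaries.

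Piwi-bound small RNA from ovaries without germline piwi was low at nearly all loci. Among the 182 bins, 173 had at least 4-fold less Piwi-bound signal than control small RNA signal, against 81.9% of all kept bins of that level. The median log2 ratio was −6.17 (95% interval −6.39 to −5.70), beside −8.60 in the major clusters of 2L, 2R and 3L and −0.26 in those of X. The ratio sets an immunoprecipitate against whole small RNA and gives no share of cells. Its lowest possible value depends on the control signal of the bin.

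X-3 was the exception, with a mean Piwi-bound signal of 2413 beside 2071 in control small RNA. More Piwi-bound than control signal was found in 5 of the 182 bins, all in X-3, against 2.69% of all kept bins of that level. At least 2-fold more was found in 0 bins, against 0.202%. The 5 bins, from 11090001 to 11095000, had authors' ratios of 1.52, 1.51, 1.09, 1.00 and 1.15. The exon loci X-2 and X-4 had Piwi-bound means of 2.35 and 1.04 only. All 3 loci thus had small RNA in the knockdowns, but only that of X-3 was abundant in the Piwi-bound library.

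2L-1, chromosome 2L from 2001 to 12000, held both patterns within 7 kept bins. In the bin from 5001 to 6000 the small RNA signal was 309 in control, 1.06 in rhino, 0.89 in deadlock and 1.78 in cutoff knockdown, with a Piwi-bound signal of 0.21. In the bin from 10001 to 11000, which overlaps an exon, it was 237 in control, 188, 186 and 228 in the knockdowns, and 154 bound to Piwi. Control Rhino signal in the same 2 bins was 48.5 and 12.3, and H3K9me3 signal was 53.3 and 12.3. The 4 bins nearer the chromosome end were at least 4-fold lower in each knockdown, and the 3 bins from 9001 to 12000 were not.

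**Figure D2:**
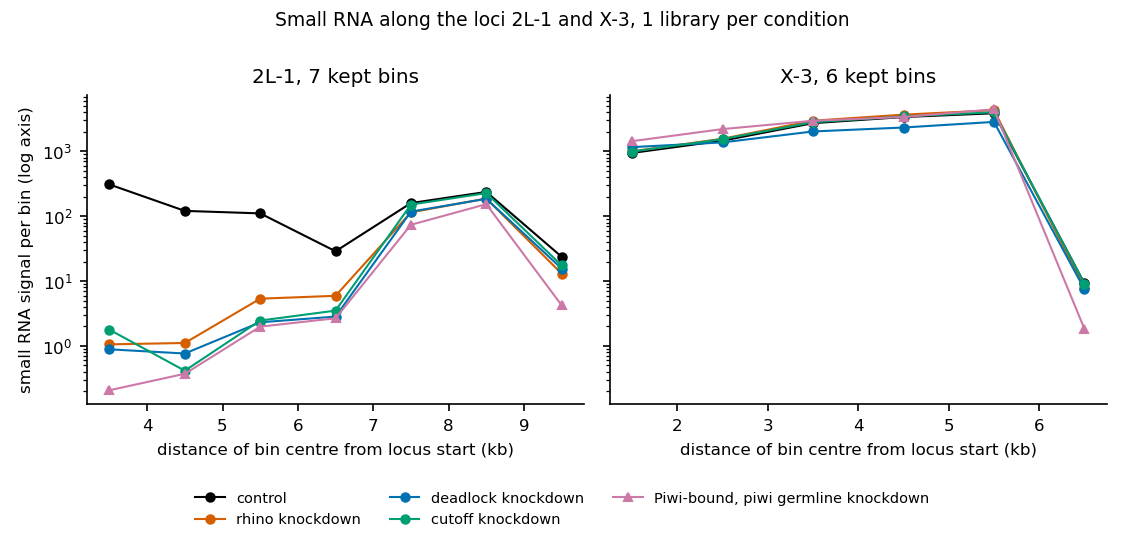
Small RNA signal per kept bin on a log axis against the distance of the bin from the start of the locus in kb, for 2L-1 and X-3, with 1 line per library. At 2L-1 the control line stands apart from the others in the first 4 kept bins and joins them in the last 3, and at X-3 all 5 lines run together up to the last bin.

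The authors' own flags covered 143 of the 290 members. Of 180 members in their window selection, 143 carried one of 3 source flags, and all 143 had at least 10 small RNA signal in control. The flag RD stood on 129, SO on 7 and RI on 7. Over the whole table, RD bins had at most 0.203 times the control small RNA in rhino knockdown and a Piwi-bound ratio of at most 0.124, and SO bins had a Piwi-bound ratio of at least 0.125. RI bins had at least 0.203 times control in rhino knockdown and a Piwi-bound ratio of at most 0.125. X-3 had no bin in the selection, so it carries none of these flags. X-2 and X-4 carried RI on 1 and 2 bins, and 2L-1 carried RD on 3, SO on 3 and RI on 1.

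Rhino was bound in at least 1 bin at 9 of the 17 loci. The median Rhino signal over input in control was 2.03 on the log2 scale (95% interval 1.85 to 2.20), beside −0.20 over all kept bins. Bins at least 4-fold over input, called bound here, numbered 111 of 220, against 3.35% of all kept bins. In the major clusters of 2L, 2R and 3L they were 235 of 252, and on the arms outside published clusters 277 of 110312. A Rhino peak of the authors lay on 75 of the 220, against 1.32% of all kept bins. The calls overlapped in part, since 63 of the 111 bound bins carried such a peak.

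The 111 bound bins fell in 9 of the 17 loci. X-6 had 41, X-8 had 18, 3R-1 had 16, X-1 had 14, 2R-2 had 6, 3L-1 had 5, 2L-3 and 3R-2 had 4 each and 2L-1 had 3. All 17 bins of 3R-1 but 1 and all 4 kept bins of 3R-2 were bound, while X-2, X-3 and X-4 had 0 bound bins. Their mean Rhino signals of 12.9, 16.6 and 10.2 lay above inputs of 6.65, 7.41 and 6.30. Each of the 111 bound bins had a control small RNA signal of at least 10, compared with 88.6% of the 4143 bound bins of the whole table.

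Small RNA was lower in the knockdowns both in bins called bound by Rhino and in bins under that threshold, with the larger median in bound bins. Bins not called bound are not bins without Rhino. Rhino signal lay below input in 0 of the 182 bins, against 1642 of all 12880 kept bins of that level. Whether small RNA was lower where Rhino is absent was therefore not tested. In the 111 bound bins the median change of small RNA was −5.02 in rhino knockdown (95% interval −5.44 to −4.66), −5.08 in deadlock and −5.34 in cutoff knockdown. In the 71 bins that were not bound it was −3.82 (−4.30 to −3.45), −3.59 and −3.59. With log2 of signal plus 1, the control small RNA of a bin limits how far it can fall. Control small RNA was not compared between bound and other bins, and this limit also holds for the correlations given below. The difference between bound and other bins was not tested, since neighbouring bins of a locus are not replicates, X-6 alone holds 41 of the bound bins, and the 3 knockdowns share 1 control library. Of the 153 bins lower in all 3 knockdowns, 51 were not bound. Spearman's rho between Rhino over input and the small RNA change in rhino knockdown was −0.50 over the 182 bins, which share libraries and neighbours, and the mappability of the bin correlated with that change at 0.24. The Piwi-bound ratio correlated with it at 0.59, a value that shares the control small RNA library with the change.

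**Figure D3:**
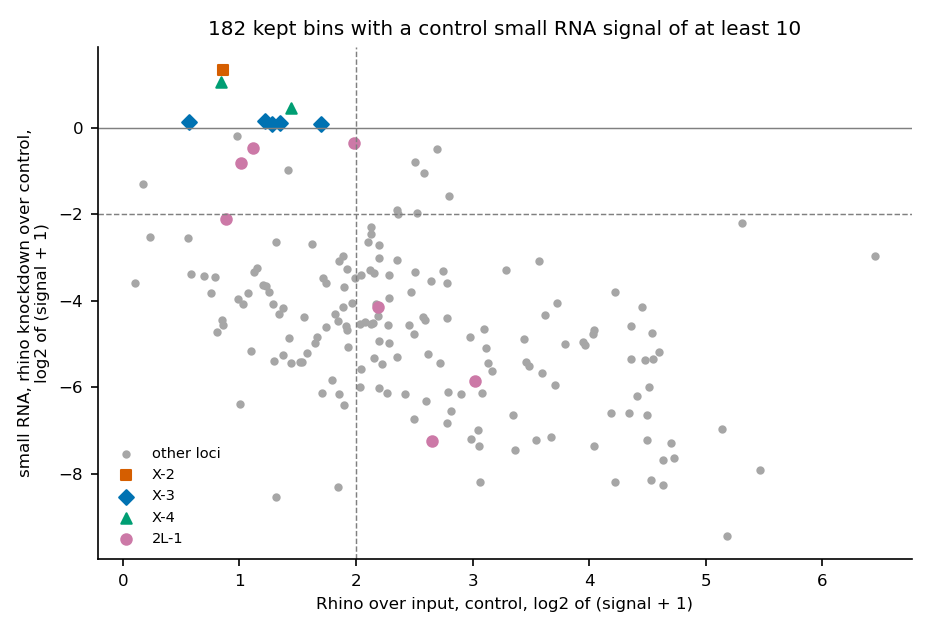
Change of small RNA in rhino knockdown against Rhino over input in control, both as log2 of signal plus 1, for the 182 kept bins with a control small RNA signal of at least 10; dashed lines mark 4-fold over input and 4-fold lower small RNA. Bins of X-2, X-3 and X-4 lie above 0 and left of the line for bound bins, and those of 2L-1 lie on both sides of both lines.

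In rhino, deadlock and cutoff knockdown the mean Rhino signal of each of the 9 loci with bound bins was lower than in control. Over all 220 kept bins the median change was −1.87 in rhino, −1.96 in deadlock and −1.12 in cutoff knockdown. It was at least 2-fold lower in 158 bins in rhino knockdown, 167 in deadlock and 117 in cutoff, against 15.9%, 18.5% and 4.41% of all kept bins. It was at least 2-fold higher in 3, 2 and 0 bins, against 7.81%, 9.22% and 0.677%. In the 111 bound bins, which were chosen by the same control signal, the medians were −2.53, −2.72 and −2.27. At 3R-2 the mean Rhino signal was 275 in control, 8.71 in rhino, 6.91 in deadlock and 18.3 in cutoff knockdown, with an input of 9.69. At 3R-1 it was 81.4 in control, 7.28 in rhino, 7.75 in deadlock and 12.5 in cutoff knockdown, with an input of 9.32. 3L-1 had 74.2 in control and 7.54, 8.15 and 11.5 in the same knockdowns over an input of 9.46. 2R-2 had 26.7 in control and 3.85, 2.75 and 9.05 over an input of 5.52, and 2L-1 had 27.0 and 6.44, 4.76 and 9.12 over 6.45. At 3R-1, 3L-1, 2R-2 and 2L-1 the rhino and deadlock knockdowns thus lay at or below input and cutoff knockdown above it, as at 3R-2. X-6, with 109.6 in control, had 26.0, 30.1 and 36.2 over an input of 8.22, above input in all 3.

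In piwi knockdown Rhino was lower than in control at some bound loci and higher at others. Over all 220 kept bins the median change was −0.14 (−0.28 to −0.02), with 51 bins at least 2-fold lower and 29 at least 2-fold higher, against 1.85% and 2.29% of all kept bins. Without X-6 the median was −0.41. Of the 111 bound bins, which were chosen by the same control signal, 43 were at least 2-fold lower and 20 at least 2-fold higher. The shares among all bound bins of the table were not computed. The mean Rhino signal at 3R-2 was 35.1 in piwi knockdown beside 275 in control, and at 3L-1 it was 12.0 beside 74.2. At 3R-1 it was 28.1 beside 81.4, and at X-1 73.4 beside 234. 14 of the 17 kept bins of 3R-1 and all 4 of 3R-2 were at least 2-fold lower. X-8 had 19.0 beside 38.1.

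X-6 differed in the other direction, with 109.6 in control and 283 in piwi knockdown. 50 of its 57 kept bins were higher in piwi knockdown and 22 were at least 2-fold higher, with a median change of 0.70 (0.45 to 1.05). Its median mappability is 0.27, and in the 33 kept bins that the authors' window selection holds the median was 0.74 (0.34 to 1.46). 2R-2 had 43.8 in piwi knockdown beside 26.7 in control, higher in 4 of 7 bins and at least 2-fold lower in none. 2L-3 had 36.5 beside 26.9, higher in 17 of 21 bins. With averages of 2 libraries and no separate values, none of these differences could be set against the spread between replicates.

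**Figure D4:**
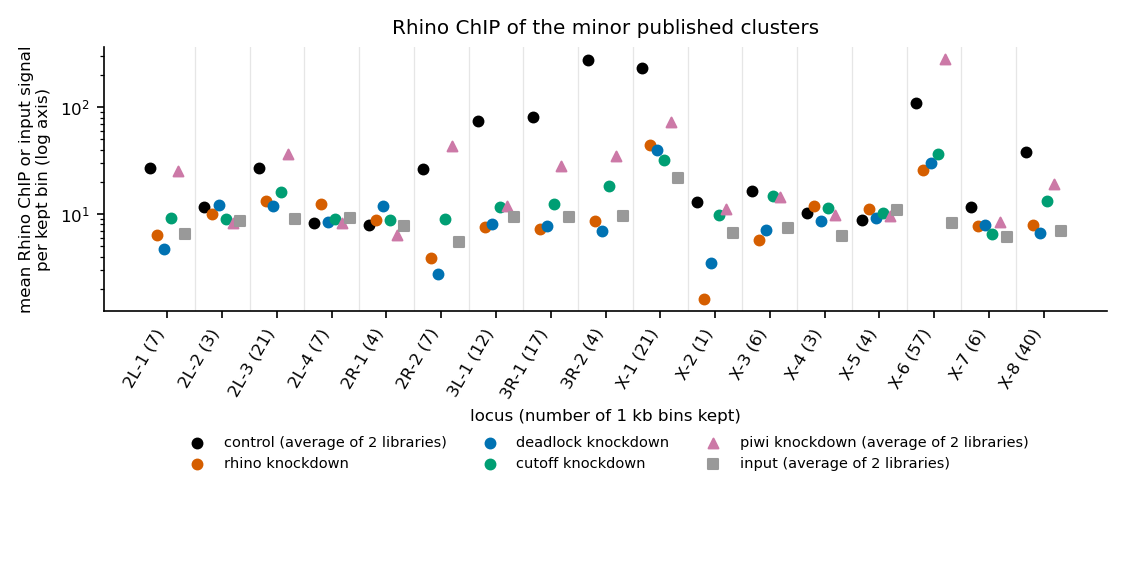
Mean Rhino ChIP signal per kept bin on a log axis at each of the 17 loci in control and 4 knockdowns, with the input; control, piwi knockdown and input are averages of 2 libraries, the others 1 library each. In piwi knockdown the signal lies far below control at 3R-2, where it is 35.1 beside 275, and above it at X-6, where it is 283 beside 109.6.

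Deadlock and Cutoff, the partners of Rhino, were hardly above their knockdown levels over these loci as a whole. The median log2 of control over deadlock knockdown in Deadlock ChIP was 0.04 (−0.03 to 0.17), and 29 of 220 bins were at least 2-fold higher in control, against 1.27% of all kept bins. For Cutoff ChIP against cutoff knockdown it was −0.14 (−0.24 to 0.00), with 21 bins, against 3.14%. The major clusters of 2L, 2R and 3L had medians of 1.78 and 1.15. The 111 bins bound by Rhino had medians of 0.41 and 0.00. The signal stood clearest at 3R-2, with 33.0 in control beside 12.7 in deadlock knockdown for Deadlock, and 22.7 beside 12.9 in cutoff knockdown for Cutoff. X-1 had 79.9 beside 36.5 and 51.6 beside 30.1. At X-6 Deadlock was 32.8 beside 21.9, and Cutoff was 23.9 beside 27.2.

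H3K9me3, the mark that Rhino recognises, covered most members, and its median over the members differed little between conditions while single loci differed more. Its median over input was 1.99 on the log2 scale (1.77 to 2.16), and 168 of 220 bins were at least 2-fold over input, against 14.4% of all kept bins. In bins bound by Rhino the median was 2.31 (2.19 to 2.49), and in the 109 others 1.12 (0.88 to 1.61). The bound call and this value share the same input column, and the difference was not tested. The median change was −0.13 (−0.18 to −0.06) in rhino knockdown, where 5 bins were at least 2-fold lower and 10 higher, against 1.51% and 3.75%. In piwi knockdown it was 0.06 (−0.05 to 0.18), with 7 lower and 19 higher, against 1.05% and 1.0%. Without X-6 that median was −0.08.

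Among single loci, 3R-2 had the largest difference in rhino knockdown of those named here. At 3R-2 the signal was 86.0 in control, 45.4 in rhino and 52.7 in piwi knockdown, with an input of 9.69. At X-1 it was 86.2, 79.2 and 45.4, lowest in piwi knockdown, and at 3R-1 it was 34.0, 32.3 and 33.0. At X-6 it was 109.7 in control, 108 in rhino and 138 in piwi knockdown. X-3 had 27.7, 21.3 and 28.9, above its input of 7.41. No bin of X-3 was called bound by Rhino, though its mean Rhino signal also lay above input. 2L-2, 2R-1 and X-5 had control signals of 9.63, 8.16 and 11.6 beside inputs of 8.61, 7.73 and 10.9.

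Nascent RNA and Pol II were measured in control and rhino knockdown only, and differed in both directions. The median GRO-seq change was 0.00 (−0.12 to 0.00), with 29 bins at least 2-fold lower and 34 at least 2-fold higher of 220, against 3.88% and 4.37% of all kept bins. With log2 of signal plus 1, a bin with a control signal under 1 cannot be called 2-fold lower. The median control GRO-seq signal of the members was 1.04. For Pol II it was −0.08 (−0.16 to 0.00), with 7 lower and 16 higher, against 0.905% and 1.29%. In the major clusters of 2L, 2R and 3L the medians were −0.74 and −0.80. Pol II in control was at least 2-fold over input in 15 members, against 7.68%. At 3R-2 there were 37 GRO-seq reads in control and 4 in rhino knockdown, 0.115 times control (0.0297 to 0.319), and Pol II was 0.492 times control (0.389 to 0.619). At 3R-1 GRO-seq was 0.638 times control (0.567 to 0.717) and Pol II 0.942 times (0.901 to 0.984). GRO-seq was higher in rhino knockdown at 2R-2, 2.36 times control (2.00 to 2.80), at X-6, 1.65 times (1.34 to 2.03), and at X-1, 1.47 times (1.34 to 1.61).

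RNA-seq is the one assay with separate control libraries, and no member passed its test. limma on log2 of signal plus 1 over all 123742 kept bins, with Benjamini-Hochberg adjustment, called 0 of 220 members in each knockdown, against 0.0% of all kept bins. The smallest adjusted p of limma was 0.785 in rhino, 0.681 in deadlock and 0.939 in cutoff knockdown. At an unadjusted p under 0.05 it held 21, 39 and 24 members, against 5.43%, 6.48% and 4.39% of all kept bins. Of these members 4, 6 and 6 were lower, against 1.05%, 1.44% and 1.19%. The labels do not say whether the 2 control libraries came from separate flies, and each lone knockdown library was assumed to vary like that pair. In simulated data with 200 bins changed 4-fold in rhino knockdown, among 123742, limma called 0 and held 200 at the unadjusted threshold. Whether the adjusted test could call changes of that size in the measured libraries was not tested. The absence of called members is therefore not read as unchanged RNA.

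Over the chromosome arms outside published clusters, the median RNA-seq signal was 0.0822 in control library 1 and 0.148 in control library 2. The means there were 9.30 and 9.67. Scaling to equal arm medians multiplied control library 2 by 0.556, so it rests on bins of low signal and moves the means apart. The limma result above did not hold when the columns were scaled that way. limma then called 24 members in rhino, 47 in deadlock and 22 in cutoff knockdown, of which 10, 33 and 12 were higher, beside 0.969%, 1.75% and 0.819% of all kept bins.

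As a description, RNA was at least 2-fold lower than the control mean in 17 members in rhino, 15 in deadlock and 17 in cutoff knockdown, against 1.23%, 2.29% and 1.43% of all kept bins. It was at least 2-fold higher in 17, 37 and 20, against 0.756%, 0.905% and 0.511%. With log2 of signal plus 1, a bin with control RNA under 1 cannot be called 2-fold lower but can be called higher. The median signal of the members was 0.358 and 0.412 in control libraries 1 and 2. The counts of lower and higher bins therefore cannot be set against each other. RNA below both controls in all 3 knockdowns was found in 78 of 220 bins, against 20.1% of all kept bins. RNA above both controls in all 3 was found in 36, against 7.96%. On the equal arm medians the counts were 55 and 51, beside 10.9% and 16.9% of all kept bins. The bins below both controls included 15 of 17 at 3R-1, all 4 at 3R-2, 8 of 12 at 3L-1, 18 of 40 at X-8 and all 3 at 2L-2. On the equal arm medians these were 11, 4, 5, 16 and 3 bins.

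RNA at 3R-2 was 3.08 and 2.41 in the control libraries, a mean of 2.75 ± 0.475 (SD, n = 2), against 0.0261, 0.0971 and 0.0255 in the rhino, deadlock and cutoff knockdowns. At 3R-1 it was 2.14 and 1.96 in control, 2.05 ± 0.125 (SD, n = 2), and 1.37, 1.16 and 0.82 in the knockdowns. Every knockdown library lay below both controls at both loci. At 3R-1 most of the difference lay in the 9 bins without an exon, a split made after the values were seen. Those bins had means of 1.46 and 1.24 in control against 0.139, 0.121 and 0.0577, whereas the 8 exon bins had 2.90 and 2.77 against 2.76, 2.33 and 1.68. The 5 bins of 3L-1 without an exon had control means of 2.13 and 1.17 beside 0.228, 0.107 and 0.125. Its 7 exon bins had 14.2 and 19.3 beside 12.9, 11.5 and 13.1.

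At 2R-2 the 3 exon bins were above both controls, with means of 2.30 and 2.63 in control against 8.19, 8.22 and 8.60 in the rhino, deadlock and cutoff knockdowns. Its 4 bins without an exon had 0.814 and 1.05 against 0.627, 0.404 and 0.437. X-4 had 11.0 and 6.88 in control against 12.8, 16.1 and 15.6, above both controls in each knockdown, as was its small RNA. X-2, whose small RNA was also higher, had 3.37 and 2.83 against 2.02, 2.48 and 2.03 in RNA-seq, below both controls as deposited but not on the equal arm medians.

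**Figure D5:**
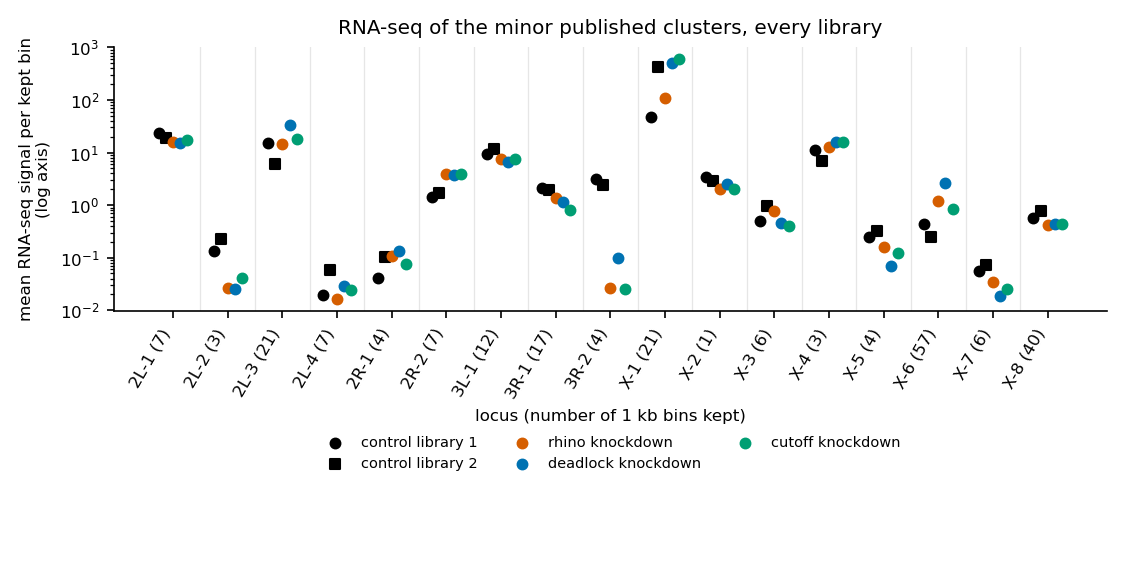
Mean RNA-seq signal per kept bin on a log axis at each of the 17 loci, with 1 point for each of the 2 control libraries and the rhino, deadlock and cutoff knockdown libraries. At 3R-2 the controls stand at 2.41 and 3.08 and the knockdowns between 0.0255 and 0.0971, whereas the controls of X-1 stand apart from each other at 47.4 and 417.

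At X-1 the 2 controls stood far apart. The locus mean was 47.4 and 417 in these libraries, beside 111, 506 and 602 for the rhino, deadlock and cutoff knockdowns. The bin from 18001 to 19000, with a mappability of 0.025, read 897 and 8349 in the controls and 2170, 10100 and 12050 in the knockdowns. Without that bin the locus means were 4.91 and 20.5 in control and 7.54, 26.0 and 29.6 in the knockdowns. Rhino knockdown lay between the 2 controls, and the other 2 knockdowns lay above both by less than the controls differed.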

How the data were processed

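Ovary ChIP-seq, RNA-seq, GRO-seq and small RNA libraries were analysed from a single table of 139714 bins of 1 kb on dm3. Per the submitters' processing notes the tools included bedtools 2.16.1, SAMtools 0.1.16, GSNAP, Bowtie 0.12.7 and cutadapt 1.0, and which made which column is not given in the sources used here. The values deposited are a normalised signal in units the labels do not define. Undoing the offset (0.1, or 0.01 for RNA-seq) and the mappability left, in the 21 columns of 1 library, values below 500 that were whole to within 0.1 read in 100% of bins. Each such column is thus a read count times 1 factor, divided by mappability. The factor was read as RPM, and the library totals rest on that reading, which was not tested. Summed bin reads were 104.8% of that total in Rhino ChIP of rhino knockdown. They were 110.8% in RNA-seq control library 1 and 14.6% in the Piwi-bound library. The other 6 of 27 columns used are the authors' averages of 2 libraries. The Piwi-bound ratio per bin is the authors' column. The mappability index is a deposited fraction. 1 column of DNA reads matched no listed sample and was not used here, and the capped RNA and H3K4me2 libraries were not analysed here. What the deposited scale of the small RNA libraries rests on was not tested. The bins held 89.7% of the inferred total in control and 41.3% to 45.2% in knockdowns.

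Changes are log2 of signal plus 1. Bound bins were called at 4-fold over input, small RNA at 4-fold and other changes at 2-fold. Medians carry distribution-free 95% intervals over bins, and ratios of summed reads carry Clopper-Pearson intervals for counting error. RNA-seq was fitted with limma 3.58.1 in R 4.3.3 (trend, residual df 1, prior df 0.927), tested on simulated data, with Python 3.11.15, pandas 2.3.3, numpy 2.4.6 and scipy 1.17.1. Loci were named with values if they were among the 10 with most control small RNA, the 5 with most bound bins, or the 5 highest or lowest in Piwi-bound ratio, and others are named for completeness. Members, thresholds and lists were chosen with earlier results of these data known, the minimum small RNA signal of 10 among them. Alternatives covered pseudocount, input and mappability filters, scaling, exon overlap, the bound threshold, locus gaps and leaving out a control RNA-seq library.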

Additional observations from a re-analysis of the deposited data

How the results depend on the processing

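No paired analysis was possible because the replicates of the ChIP averages were merged before deposit and each RNA-seq knockdown has 1 library. Of 353 values under 18 alternatives, 248 kept their direction and size, 104 moved and 1 reversed; call counts were compared as shares of bins, and summed ratios and unadjusted counts were treated as secondary, both choices made after the values were seen. Medians below are log2 values, and the cause of each move was not tested.

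With all columns at equal arm medians, Pol II over input went from −0.71 to 1.07, Rhino over input was 2.29, H3K9me3 over input 2.92, H3K9me3 in rhino knockdown −0.31, the RNA-seq medians −0.021, 0.0049 and −0.0059, and 58.6% of bins were bound; limma called 24, 47 and 22. A pseudocount of 0.1 gave 2.22 for Rhino over input, −0.86 for Pol II over input, −0.26, −0.25 and −0.39 for RNA-seq, −5.15, −5.20 and −5.32 for small RNA and −7.47 for Piwi-bound RNA. A pseudocount of 5 gave 1.54 for Rhino over input, −1.43, −1.43 and −0.89 for its change, 1.56 for H3K9me3 over input, −0.41 for Pol II over input, −0.024 and −0.033 for RNA-seq in rhino and cutoff knockdown, −3.52, −3.29 and −3.40 for small RNA, −4.51 for Piwi-bound RNA, 34.5% bound, 83.0% lower in cutoff knockdown and 90.7% lower in Piwi-bound RNA.

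With no input filter the values were 1.73 for Rhino over input, −1.51, −1.55, −0.80 and 0.00 for its change in rhino, deadlock, cutoff and piwi knockdown, 1.66 for H3K9me3 over input, 0.00 for its change in rhino knockdown, −0.33 for Pol II over input, −0.0048 and −0.037 for RNA-seq in rhino and cutoff knockdown, and 42.8% bound. A mappability of at least 0.5 gave 1.57 for Rhino and 1.49 for H3K9me3 over input, −0.14 for GRO-seq, −0.17 for RNA-seq in deadlock knockdown, −4.27 for small RNA in cutoff knockdown, −5.23 for Piwi-bound RNA and 36.2% bound. Bins without an exon gave 2.19 for H3K9me3 over input.

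The following were chosen after seeing the data. Counting each locus once gave 1.25 for Rhino over input, −1.55 and −0.90 for its change in rhino and cutoff knockdown, 1.42 for H3K9me3 over input, −0.13 in piwi knockdown, −0.41 for Pol II over input, −0.18 for RNA-seq in deadlock knockdown and −4.01 for small RNA in cutoff knockdown. Without X-6 Rhino in piwi knockdown was −0.41, H3K9me3 was 1.60 over input and −0.076 in piwi knockdown, RNA-seq was −0.17 and −0.22 in deadlock and cutoff knockdown, and 42.9% were bound. The authors' window selection had 43.6% bound.

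Calling bins bound at 2-fold or 8-fold gave 78.2% and 24.1% instead of 50.5%. Leaving out a control RNA-seq library leaves no residual degrees of freedom, so these are values with no test: −0.096 and −0.025 in rhino, −0.088 and −0.037 in deadlock, −0.13 and −0.087 in cutoff knockdown. Summed small RNA was 2.25-fold to 6.05-fold lower in rhino, 2.40-fold to 4.65-fold in deadlock and 2.20-fold to 4.55-fold in cutoff knockdown over the alternatives. The number of loci stayed 17 with gaps of 0 or 10 kb. Most ChIP columns have 1 library or an average, so depth and counting error are the only errors known for them.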
